A study of Mus musculus with 35 samples.

Results

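Macrophages in a healing wound are often described along a line between a classical state, in which they make nitric oxide through inducible nitric oxide synthase (Nos2), and an alternative state, in which arginase 1 (Arg1) turns the same substrate, arginine, into ornithine and urea. Interferon-gamma and bacterial products are the best known inducers of the classical state, and interleukin 4 and interleukin 13 of the alternative one. In skin repair, macrophages with inflammatory genes are typical of the early wound, and macrophages with genes of the alternative state are typical of the later phase of matrix repair. Arg1 is also made by other cells, keratinocytes among them, and Trem1 is made by neutrophils as well as monocytes.

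The 10 genes described here were chosen by name out of the 22830 gene symbols counted, with earlier results of these data known. They are Nos2 and the co-stimulatory receptor gene Cd86 for the classical state, Arg1, the mannose receptor gene Mrc1, the haemoglobin scavenger receptor gene Cd163 and Retnla (also called Fizz1 or Relm-alpha) for the alternative state, the anti-inflammatory cytokine gene Il10, the amplifying receptor gene Trem1, and Cd68 and Csf1r as genes of macrophages in general. Csf1r encodes the receptor for colony-stimulating factor 1, on which macrophage survival depends, and Cd68 a lysosomal membrane protein. All 10 were found in both count tables and all 10 passed the filter on low counts in each comparison.

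RNA was measured in full-thickness skin wounds of mice with floxed Col5a1 alleles. In Col5a1CKO mice the gene for the alpha 1 chain of type V collagen can be deleted by a tamoxifen-inducible Cre recombinase under a Col1a2 enhancer, a driver used for fibroblasts. WT littermates carried the floxed alleles without Cre, and both genotypes were given tamoxifen. There were 7 WT and 7 Col5a1CKO wounds at day 14, 3 Col5a1CKO wounds at day 14 that had been injected with cultured WT fibroblasts, and 3 WT and 3 Col5a1CKO wounds at day 19. By the study's description, wounds of day 14 not given fibroblasts were given vehicle, PBS for mice without cells, while their GEO labels name no vehicle. In a second experiment there were 4 wounds each of WT mice with vehicle, Col5a1CKO mice with vehicle and Col5a1CKO mice with cilengitide, an inhibitor of the integrins alpha v beta 3 and alpha v beta 5. The words vehicle wounds are kept here for that experiment. The GEO labels give no day for the single libraries of this experiment, and the description of the series places it at day 14. For the 3 Col5a1CKO wounds of day 19 the record's treatment field names WT fibroblasts, whereas the sample titles put fibroblasts only at day 14, and the titles were followed.

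Positions are on mouse build NCBI37/mm9. Nos2 (NM_010927) lies on chromosome 11 from 78734289 to 78773756 on the plus strand, and Arg1 (NM_007482) on chromosome 10 from 24635014 to 24647276 on the minus strand. Mrc1 (NM_008625) is on chromosome 2 from 14151041 to 14253684, Cd163 (NM_001170395) on chromosome 6 from 124254669 to 124280545, Retnla (NM_020509) on chromosome 16 from 48842665 to 48844574, Il10 (NM_010548) on chromosome 1 from 132916422 to 132921551 and Trem1 (NM_021406) on chromosome 17 from 48371903 to 48386091, all on the plus strand. Cd86 (NM_019388) is on chromosome 16 from 36603955 to 36666167 and Cd68 (NM_009853) on chromosome 11 from 69477715 to 69479655, both on the minus strand. Csf1r was counted as NM_001037859. The counts are reads on the exons of these transcripts, UTRs included.

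The libraries held 15043531 to 35700337 counts in the first table (23 libraries) and 51211600 to 68266760 in the cilengitide table (12 libraries). Libraries of the first table fell into 2 sets by the contrast between GC-rich and GC-poor genes, here called the lower and the upper set. The lower set holds 4 of 7 WT and 5 of 7 Col5a1CKO wounds of day 14, and the upper set all other wounds of that table. In the upper set the 3 WT wounds of day 14 had Ddx3y, a Y chromosome gene, and the 2 Col5a1CKO wounds and the 3 with fibroblasts Xist, each at 10 CPM or more, so sex and group cannot be told apart there. In the cilengitide experiment, Ddx3y was at that level in 2 of 4 WT vehicle, 3 of 4 Col5a1CKO vehicle and 2 of 4 Col5a1CKO cilengitide wounds and Xist in 2, 0 and 2. Col5a1CKO vehicle replicate 2 had neither. By the study's methods, RNA came from a punch biopsy of the centre of each wound or scar. Cells were not separated, so more macrophages and more RNA of a gene per macrophage cannot be told apart.

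Arg1 was the highest of the 10 genes in WT wounds of day 14 and Nos2 was among the 3 lowest. In RPKM (counts scaled to transcript length and library size), the median level in WT wounds of day 14 was 274.7 for Arg1, 37.0 for Cd68, 18.8 for Mrc1, 14.0 for Csf1r, 4.86 for Cd86, 1.88 for Retnla, 1.47 for Trem1, 0.414 for Nos2, 0.187 for Cd163 and 0.0415 for Il10. In Col5a1CKO wounds of day 14 Arg1 was still first, with a median of 296.3 RPKM, and Nos2 followed with 22.6 RPKM behind Cd68, Csf1r and Mrc1. In Col5a1CKO vehicle wounds the medians were 1203 RPKM for Arg1, 284.7 for Cd68, 152.2 for Trem1, 118.9 for Csf1r and 85.4 for Nos2. Library size counts every transcript of a symbol in the first table only, so RPKM cannot be compared between the tables. In WT wounds of day 19 Arg1, with a median of 46.3 RPKM, was below Cd68 at 132.4 and Csf1r at 80.5, and Nos2, at 2.79, was above Trem1, Cd163 and Il10. In none of the 8 groups was the median of Nos2 above that of Arg1 in RPKM.

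**Figure D1:**
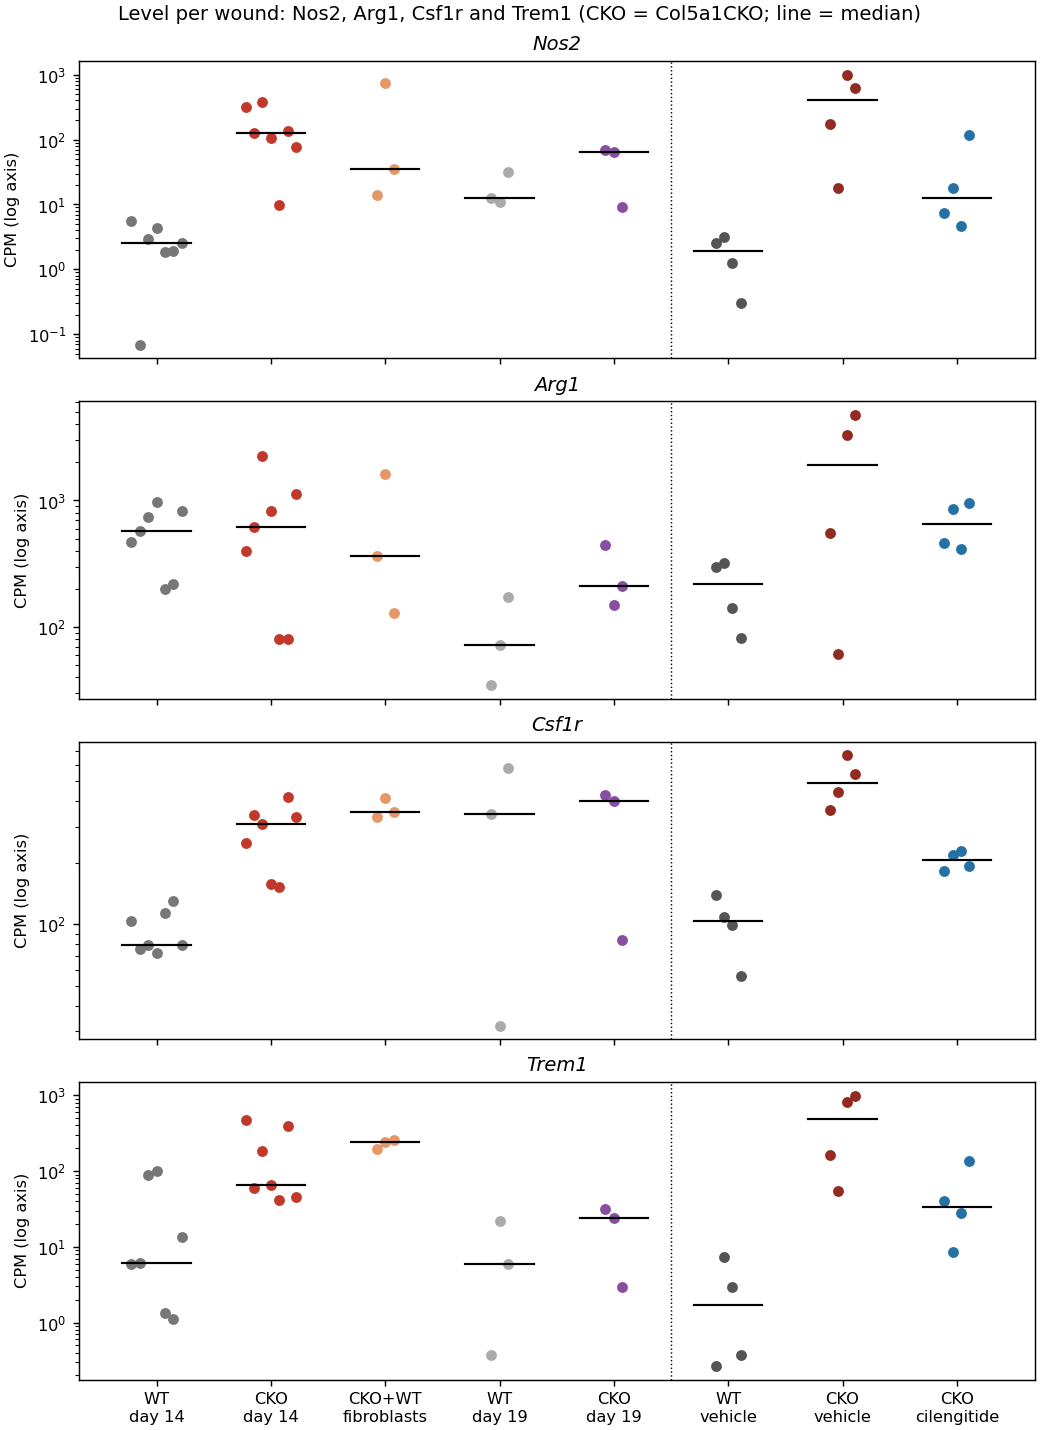
CPM (counts scaled to library size, log axis) of Nos2, Arg1, Csf1r and Trem1 in each wound of the 8 groups, with the group median as a line; the dotted line parts the count tables, which were normalized separately. The 7 Col5a1CKO wounds of day 14 lie at 9.79 to 383.4 CPM of Nos2, all above the 7 WT wounds, while the Arg1 levels of the same groups overlap.

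Nos2 was higher in every Col5a1CKO wound of day 14 than in any WT wound. It was at 0.0688 CPM in the lowest WT wound, 2.51 in the median and 5.53 in the highest, and at 9.79, 128.0 and 383.4 CPM in the lowest, median and highest Col5a1CKO wound. Nos2 thus rose 60.2-fold (log2 fold change 5.91 with a standard error, SE, of 0.836, adjusted p = 0.0031 by the quasi-likelihood test of edgeR, 7 against 7). This call held in 24 of 24 alternative settings, with log2 fold changes of 5.56 to 6.20. Within the lower library set the Col5a1CKO wounds were at 9.79 to 383.4 CPM and the WT wounds at 0.0688 to 5.53, and within the upper set they were at 76.1 and 136.0 against 1.88 to 2.51.

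Arg1 was not called in the same wounds. Its lowest, median and highest levels were 200.2, 569.2 and 972.4 CPM in WT wounds and 80.96, 621.5 and 2266 CPM in Col5a1CKO wounds. The Col5a1CKO wounds spread on both sides of the WT range, and the log2 fold change was 0.43 (SE 0.641, edgeR adjusted p = 0.703). The log2 ratio of Nos2 to Arg1 was therefore compared wound by wound, with 0.1 CPM added to each. The WT wounds had a mean log2 ratio of -7.93 ± 1.82 (SD, n = 7). The Col5a1CKO wounds had -2.04 ± 1.65 (SD, n = 7), higher by 5.89 and without overlap (2-sided exact permutation p = 0.00058, the smallest that 7 against 7 allows, adjusted p = 0.0061 over 21 ratio tests). In 1 Col5a1CKO wound, replicate f, Nos2 exceeded Arg1 in CPM, at 136.0 against 81.1. Within the lower set the difference was 6.22 and within the upper set 5.67, where the smallest p that 2 against 3 wounds allow is 0.200.

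Csf1r and Cd68, genes of macrophages in general, also rose at day 14. Csf1r was at 72.6, 79.1 and 130.1 CPM in the lowest, median and highest WT wound and at 151.3, 309.1 and 419.6 in the Col5a1CKO wounds, without overlap (3.04-fold, log2 fold change 1.60, SE 0.259, edgeR adjusted p = 0.0047). Cd68 was at 38.5, 54.6 and 93.9 CPM against 53.9, 133.4 and 200.4 (2.26-fold, edgeR adjusted p = 0.0234), and the groups overlapped. The call of Cd68 was lost without Col5a1CKO replicate c or f and within the lower library set, where its log2 fold change was 0.78 and its adjusted p 0.177 from edgeR. The summed level of 9 macrophage markers, these 2 genes among them, ranged over the lower set from 2624 to 3258 CPM for WT and from 1798 to 5672 CPM for Col5a1CKO wounds, with Col5a1CKO replicates d and e below every WT wound of that set. In the upper set the WT wounds lay at 480.0 to 722.9 CPM and the 2 Col5a1CKO wounds at 1910 and 3706 CPM. Within the lower set 2 of the 10 genes were called, Nos2 and Csf1r, and the share of all genes called there was not counted. The rise of Nos2 was larger than that of Csf1r in these wounds. Their mean log2 ratio was -5.51 ± 1.64 (SD, n = 7) for WT wounds and -1.29 ± 1.51 (SD, n = 7) for Col5a1CKO ones, higher by 4.22 (2-sided exact permutation p = 0.00058, adjusted p = 0.0061). For Arg1 to Csf1r the difference was -1.67, and the groups overlapped (exact permutation p = 0.0693, adjusted p = 0.132).

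Il10, which macrophages make to restrain inflammation, rose as well, from very low levels. Of the 7 WT wounds, 3 had 0 CPM and the highest had 1.25, with 33 counts in all. The Col5a1CKO wounds were at 0.250 to 8.72 CPM with a median of 2.39 (13.5-fold, log2 fold change 3.76, SE 1.13, edgeR adjusted p = 0.0460). That call stood close to the threshold and held in 9 of 24 alternative settings, and leaving out 11 of the 14 wounds, one at a time, ended it, with an adjusted p of 0.0017 to 0.197 over all alternatives.

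The other 5 genes were not called at day 14 by edgeR as first fitted. DESeq2 called 7 of the 10 genes in this comparison, and the share of all genes it called was not counted. Cd86 had a median of 17.2 CPM in WT and 35.7 CPM in Col5a1CKO wounds (log2 fold change 1.08, edgeR adjusted p = 0.0799), Mrc1 150.0 and 310.8 CPM (log2 fold change 1.21, adjusted p = 0.149) and Trem1 6.19 and 64.8 CPM (log2 fold change 2.54, adjusted p = 0.128). Cd163 was at 0 to 2.15 CPM in 6 of the WT wounds and at 13.4 CPM in the other, against 3.24 to 63.3 CPM in the Col5a1CKO wounds (log2 fold change 3.0, adjusted p = 0.0718). Retnla had medians of 1.79 and 2.70 CPM (log2 fold change 0.21, adjusted p = 0.923). Cd86 and Mrc1 were called too when library set was a term of the model. Mrc1 was at 150.0 to 337.9 CPM in the WT wounds of the lower set and 31.3 to 48.4 CPM in those of the upper set. Cd86 was at 17.2 to 32.7 CPM and 7.16 to 12.1 CPM in the same WT wounds, so the WT levels of both genes parted by library set. In all, 4 of the 10 genes were called higher and 0 lower, where 5.57% of the 14367 genes tested were called higher and 2.71% lower. In 2 of the 10, Nos2 and Csf1r, every Col5a1CKO wound was above every WT wound, as in 2.31% of all genes. The median log2 fold change of the 10 genes was 1.41, against -0.03 over all genes.

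**Figure D2:**
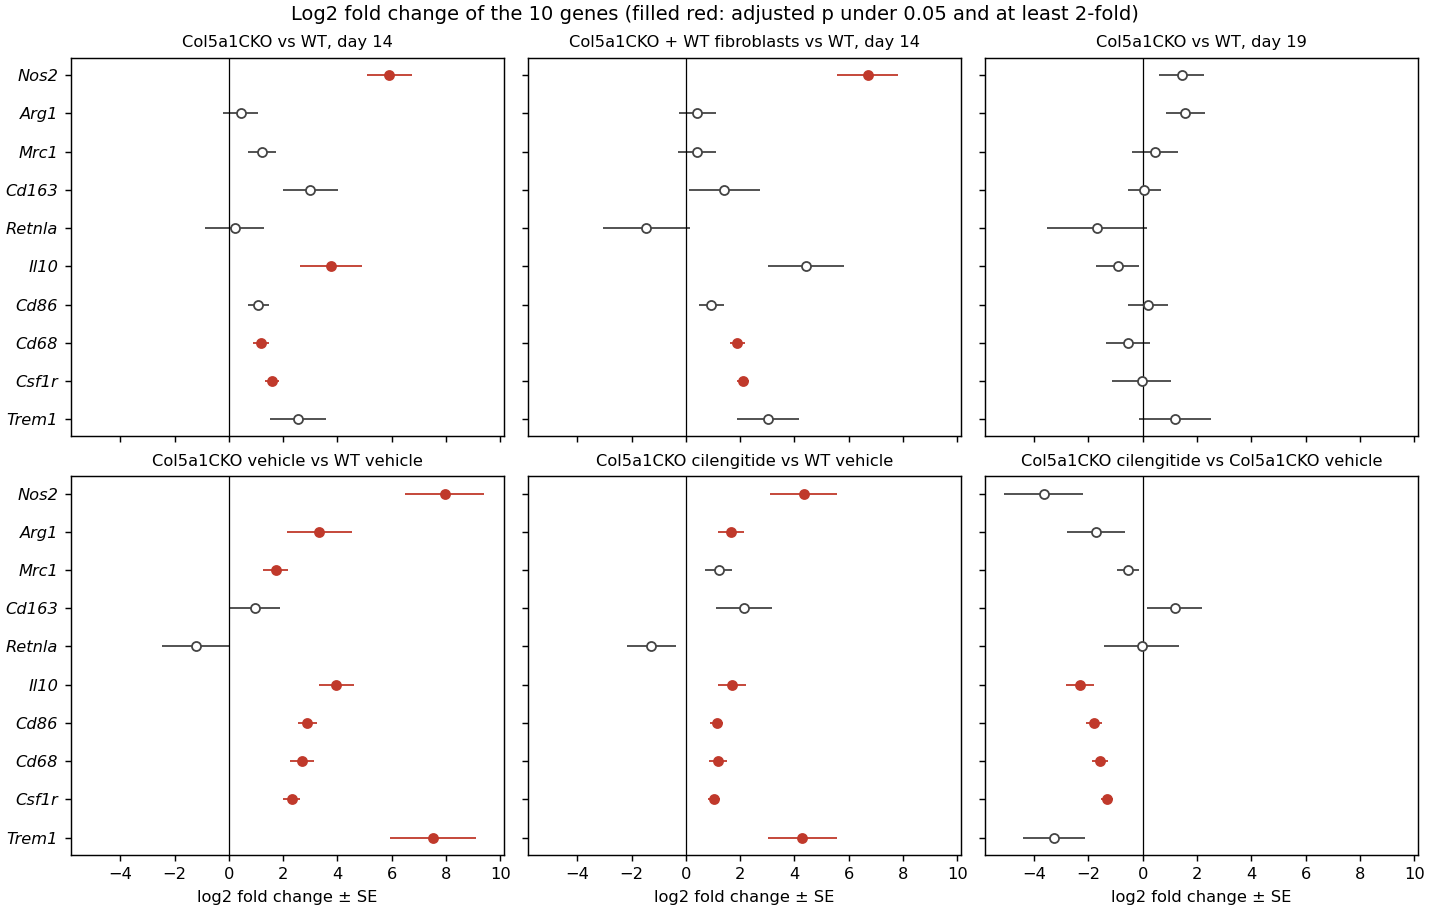
Log2 fold change with its standard error (SE) of each of the 10 genes in 6 comparisons, with genes called (adjusted p under 0.05 and at least 2-fold) as filled red points. Nos2 has the largest value in the 3 comparisons of Col5a1CKO or fibroblast-injected wounds with WT at day 14, from 5.91 to 7.95, and no gene is filled at day 19.

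Comparing fibroblast-injected with other Col5a1CKO wounds of day 14 called no gene of the table, these 10 included. Nos2 was at 14.1, 748.3 and 34.6 CPM in the 3 injected Col5a1CKO wounds, so that replicate b stood above, and the others within, the range of the 7 Col5a1CKO wounds without fibroblasts. Arg1 was highest in the same replicate b, at 366.8, 1634 and 129.7 CPM. Csf1r was at 336.1 to 413.3 CPM, Cd68 at 184.5 to 217.9 CPM and Trem1 at 196.7 to 259.1 CPM, and of these 9 values only Cd68 in replicates b and c lay above the range of the Col5a1CKO wounds without fibroblasts. Against Col5a1CKO wounds without fibroblasts, 0 of the 10 genes were called by edgeR and 0 by DESeq2, and 1, Mrc1, had an unadjusted p under 0.05 (log2 fold change -0.96, adjusted p = 0.386). Over all 15659 genes tested, 0% were called higher and 0% lower in that comparison. The injected wounds are all in the upper library set, as are 2 of the 7 other Col5a1CKO wounds. Within that set the log2 fold change of Mrc1 was 0.0025. All 3 injected wounds had Xist, and 4 of the 5 Col5a1CKO wounds of the lower set had Ddx3y, so these groups also differ in sex. The sign of the Nos2 difference, 0.67 on the log2 scale, turned to -2.78 without replicate b.

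Against WT wounds, the injected wounds still had higher Nos2 (log2 fold change 6.70, SE 1.11, edgeR adjusted p = 0.0053, 3 against 7), Cd68 (log2 fold change 1.90, adjusted p = 0.0034) and Csf1r (log2 fold change 2.11, adjusted p = 0.000725). These 3 of 10 genes were called higher and 0 lower, where 3.77% of all genes were called higher and 2.06% lower. In 5 of the 10, Nos2, Il10, Cd68, Csf1r and Trem1, every injected wound was above every WT wound, as in 10% of all genes. The call of Nos2 rested on replicate b, without which its log2 fold change was 3.26 and its adjusted p 0.0942 from edgeR. All 3 injected wounds belong to the upper library set. Within that set 8 of the 10 genes were called higher than in the 3 WT wounds, Arg1 and Retnla excepted. The share of all genes called in that fit was not counted. The injected wounds had Xist and the WT wounds of that set Ddx3y, so that sex and group cannot be told apart there. The comparisons of injected wounds share their samples with the comparison of Col5a1CKO and WT wounds.

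At day 19 the difference in Nos2 between genotypes was not called, and its change from day 14, given below, did not pass its test. WT wounds of day 19 were at 12.4, 10.9 and 31.3 CPM of Nos2, each above all 7 WT wounds of day 14, and Col5a1CKO wounds at 68.5, 65.0 and 9.15 CPM. Arg1 was at 34.6, 71.7 and 172.4 CPM in WT, each below all 7 WT wounds of day 14, and at 442.2, 149.7 and 209.2 CPM in Col5a1CKO wounds. The days themselves were not compared by a test. All day 19 wounds are in the upper library set, which holds only 3 WT and 2 Col5a1CKO wounds of day 14. The log2 fold change between genotypes was 1.44 for Nos2 (edgeR adjusted p = 0.311, 3 against 3) and 1.57 for Arg1 (adjusted p = 0.233), and the log2 ratio of Nos2 to Arg1 differed by -0.58 (exact permutation p = 0.800, where 3 against 3 cannot go below 0.1).

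Of the 10 genes, 0 were called at day 19 by edgeR or by DESeq2, and 0 had an unadjusted p under 0.05. Among all 15135 genes tested, 0.0198% were called higher and 0% lower. In each genotype 1 wound was low in macrophage genes. Csf1r was at 32.0 CPM in WT replicate b against 346.3 and 580.7 in the others, and at 83.7 CPM in Col5a1CKO replicate c against 427.1 and 399.4. Cd68, Cd86 and Mrc1 were lowest in the same wounds, while Nos2 in WT replicate b, at 10.9 CPM, was near that of replicate a, at 12.4 CPM. The genotype effects of both days were set against each other in 1 model, without a term for library set. For Nos2 the log2 fold change of day 19 minus that of day 14 was -4.52 (unadjusted p = 0.0025, edgeR adjusted p = 0.613), and 0 of 15954 genes passed an adjusted p of 0.05, with 939 at an unadjusted p under 0.05.

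The cilengitide experiment repeated the comparison of genotypes in other wounds, with vehicle injections. Nos2 was at 2.54, 3.16, 1.24 and 0.304 CPM in the WT vehicle wounds and at 172.4, 18.0, 1000.2 and 629.4 CPM in the Col5a1CKO vehicle wounds. Nos2 rose 247.8-fold (log2 fold change 7.95, SE 1.45, edgeR adjusted p = 0.00385, 4 against 4), and the groups did not overlap. Trem1 was at 0.267, 7.33, 2.99 and 0.375 CPM against 164.5, 54.3, 820.9 and 989.8 CPM and rose 181.5-fold (log2 fold change 7.50, SE 1.59, adjusted p = 0.00679). In both genes Col5a1CKO replicate 2 was the lowest of its group.

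Arg1 was called higher here, unlike at day 14 of the first experiment, but with a wide spread. It was at 298.8, 319.8, 142.1 and 81.4 CPM in WT vehicle and at 549.8, 61.4, 3293 and 4742 CPM in Col5a1CKO vehicle wounds. Col5a1CKO replicate 2 lay below every WT wound and the other 3 above all of them (10.1-fold, log2 fold change 3.34, SE 1.19, edgeR adjusted p = 0.0485). The call was lost in 7 of 13 alternative settings, among them leaving out any 1 WT wound or Col5a1CKO replicate 3 or 4, with an adjusted p of 0.0022 to 0.115 over all alternatives. Whether the Arg1 difference is larger than in the first experiment was not tested, because the tables were normalized separately.

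The wounds with most Nos2 in this group were also those with most Arg1. Across the 4 Col5a1CKO vehicle wounds, where Nos2 ranged from 18.0 to 1000.2 CPM and Arg1 from 61.4 to 4742 CPM, their log2 ratio was -2.02 ± 0.60 (SD, n = 4). In the WT vehicle wounds it was -6.96 ± 0.47 (SD, n = 4). The difference of 4.94 was without overlap (2-sided exact permutation p = 0.0286, the smallest that 4 against 4 allows, adjusted p = 0.0857), and did not pass after adjustment over the 21 tests. Relative to Csf1r, Nos2 was higher by 4.81 on the log2 scale (exact permutation p = 0.0286, adjusted p = 0.0857) and Arg1 by -0.14 (p = 0.971).

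**Figure D3:**
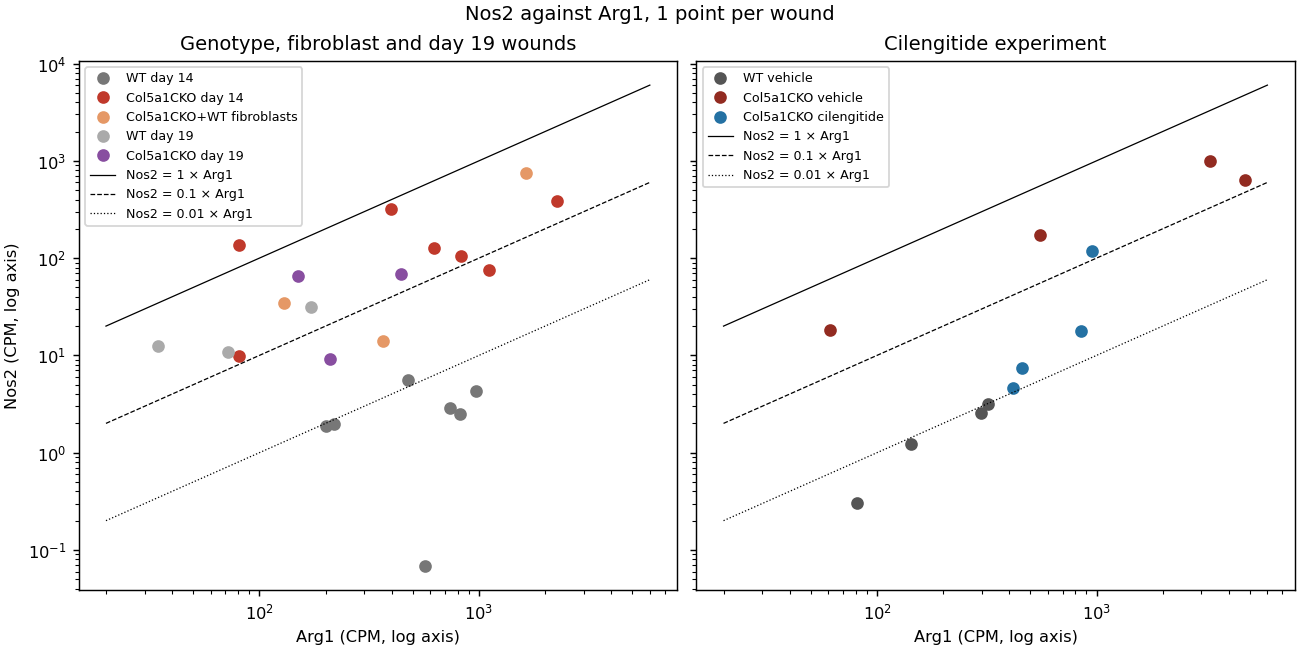
Nos2 against Arg1 in CPM (both axes logarithmic), with 1 point per wound; lines mark Nos2 at 1, 0.1 and 0.01 times Arg1. WT wounds of day 14 lie near or under the lowest line in both experiments, Col5a1CKO wounds of day 14 near or above the middle line, and 3 of the 4 cilengitide wounds between the lowest and the middle lines.

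Most of the other genes rose with them. Cd86 was at 4.61 to 9.43 CPM in WT vehicle and 36.2 to 82.2 CPM in Col5a1CKO vehicle wounds (7.39-fold, edgeR adjusted p = 0.00102), and Il10 at 0.107 to 0.401 against 1.28 to 5.90 CPM (15.6-fold, adjusted p = 0.00245). Csf1r was at 56.1 to 138.5 CPM against 361.9 to 669.2 CPM (4.97-fold, adjusted p = 0.00145), and Cd68 at 25.1 to 75.0 against 200.4 to 444.5 CPM (6.47-fold, adjusted p = 0.00267). Mrc1 rose 3.32-fold, from 21.4 to 99.3 up to 128.3 to 282.5 CPM (adjusted p = 0.0172), and lost its call without WT vehicle replicate 3.

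Cd163 and Retnla, both textbook genes of the alternative state, did not pass the test. Cd163 lay between 0.143 and 2.19 CPM in WT vehicle wounds and between 0.302 and 3.91 CPM in Col5a1CKO vehicle wounds (log2 fold change 0.95, edgeR adjusted p = 0.423). Retnla was at 1.63, 1.78, 6.08 and 3.80 CPM in WT and 0.0853, 5.03, 0.172 and 0.329 CPM in Col5a1CKO vehicle wounds (log2 fold change -1.23, adjusted p = 0.432). Replicate 2, low in Nos2, Arg1 and Trem1, was the Col5a1CKO vehicle wound with the most Retnla and Mrc1, and without it Retnla was called lower. In all, 8 of the 10 genes were called higher and 0 lower, where 17.5% of the 15434 genes tested were called higher and 13.4% lower. For 7 of the 10 all Col5a1CKO wounds were above all WT wounds, against 23.4% of all genes. The median log2 fold change of the 10 was 2.79, against 0.02 over all genes.

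Col5a1CKO wounds treated with cilengitide had lower levels of the general macrophage genes than those given vehicle. Csf1r was at 182.6 to 229.3 CPM with cilengitide, below the 361.9 to 669.2 CPM with vehicle (log2 fold change -1.31, SE 0.222, edgeR adjusted p = 0.0087, 4 against 4). Cd68 fell from 200.4 to 444.5 CPM down to 88.0 to 119.7 CPM (log2 fold change -1.57, adjusted p = 0.0109). Cd86 was at 13.9 to 21.7 CPM with cilengitide (log2 fold change -1.79, adjusted p = 0.00859), and Il10 at 0.526 to 1.05 CPM (log2 fold change -2.32, adjusted p = 0.0173). None of these 4 overlapped between the groups, and they were the 4 called lower, with 0 called higher, where 6.59% of the 15563 genes tested were called lower and 6.48% higher. Over all genes, 12.7% were lower without overlap.

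Nos2, Arg1 and Trem1 had larger or similar differences and were not called. Nos2 was at 7.34, 17.9, 4.60 and 117.1 CPM with cilengitide, against 172.4, 18.0, 1000.2 and 629.4 CPM with vehicle (log2 fold change -3.65, SE 1.44, edgeR adjusted p = 0.0979). The groups overlapped through cilengitide replicate 4 and vehicle replicate 2. Trem1 was at 39.8, 8.59, 27.8 and 137.9 CPM with cilengitide (log2 fold change -3.27, SE 1.14, adjusted p = 0.0695). Arg1 was at 459.7, 853.6, 416.2 and 949.0 CPM with cilengitide, inside the vehicle range of 61.4 to 4742 CPM (log2 fold change -1.71, SE 1.07, adjusted p = 0.265). Without cilengitide replicate 4, and also with DESeq2, Nos2 and Trem1 were called lower, and without vehicle replicate 2 Trem1 was. Mrc1, at 72.2 to 203.1 CPM (log2 fold change -0.54, adjusted p = 0.331), Cd163, at 0.625 to 11.1 CPM (log2 fold change 1.18, adjusted p = 0.413), and Retnla, at 0.0986 to 2.99 CPM (log2 fold change -0.04, adjusted p = 0.986), were not called.

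The Nos2 to Arg1 ratio with cilengitide lay between those of the other groups. It was -5.25 ± 1.53 (SD, n = 4) on the log2 scale, below each of the vehicle wounds of the same genotype by a mean of 3.24 and above each of the WT vehicle wounds by a mean of 1.71 (exact permutation p = 0.0286 for each, the smallest that 4 against 4 allows, adjusted p = 0.0857). Relative to Csf1r, Nos2 was lower by 2.42 than with vehicle, with overlap (exact permutation p = 0.200).

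Compared with WT vehicle wounds, 7 of the 10 genes were called higher and 0 lower in cilengitide wounds, where 5.15% of 15514 genes were called higher and 3.43% lower. The log2 fold changes were 4.34 for Nos2, 4.30 for Trem1, 1.69 for Il10, 1.67 for Arg1, 1.17 for Cd68, 1.13 for Cd86 and 1.04 for Csf1r, with adjusted p of 0.0234 to 0.0497 from edgeR. For these 7 genes all cilengitide wounds were above all WT vehicle wounds, as for 14.4% of all genes. The count of called genes was fragile. It was 0 without cilengitide replicate 2, 3 or 4 or WT vehicle replicate 3 or 4, it was 1 when the 3 groups were fitted together, and it was 9 with DESeq2. This comparison shares its wounds with the other comparisons of that experiment.

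Other genes of the classical state were read from a list of 22, which includes Nos2 and Cd86. In vehicle wounds 17 of the 21 tested were called higher in Col5a1CKO and 0 lower, with a median log2 fold change of 2.92, and with cilengitide 11 of 21 were called lower than with vehicle and 0 higher, with a median of -1.92. Of all genes, 17.5% were called higher and 13.4% lower in vehicle wounds, and 6.59% lower and 6.48% higher with cilengitide. At day 14 of the first experiment 4 of 21 were called higher, against 5.57% of all genes, with a median of 2.02. The cytokine gene Il6 rose at day 14 (log2 fold change 7.70, edgeR adjusted p = 0.00421) and in vehicle wounds, from a mean of 0.324 CPM to 26.9 CPM (log2 fold change 6.35, adjusted p = 0.00103). The formyl peptide receptor gene Fpr2 rose from 0.892 to 136.0 CPM in vehicle wounds (log2 fold change 7.23, adjusted p = 0.0018). With cilengitide the interferon-response genes Irf1 (log2 fold change -1.40, adjusted p = 0.0039) and Cxcl10 (log2 fold change -1.63, adjusted p = 0.0115) and the co-stimulatory receptor gene Cd40 (log2 fold change -1.37, adjusted p = 0.00557) fell.

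The list of 19 genes of the alternative state moved in both directions. In vehicle wounds 7 were called higher and 2 lower, with a median of 0.48, and with cilengitide 1 was called higher and 3 lower than with vehicle, with a median of -0.43. Both sets of counts stand beside 17.5% higher and 13.4% lower among all genes in vehicle wounds and 6.48% higher and 6.59% lower with cilengitide, so that the 2 called lower and the 1 called higher were no larger a share than among all genes. Those called higher in Col5a1CKO vehicle wounds included the beta-glucan receptor gene Clec7a, from 15.1 to 369.2 CPM (log2 fold change 4.60, edgeR adjusted p = 0.00102), the transglutaminase gene Tgm2 (log2 fold change 3.98, adjusted p = 0.00221), Chil3, which encodes Ym1 (log2 fold change 5.79, adjusted p = 0.00229), and Pdcd1lg2, which encodes PD-L2 (log2 fold change 3.79, adjusted p = 0.00319). The 2 called lower were Klf4 (log2 fold change -2.69, adjusted p = 0.00685) and Egr2 (log2 fold change -1.56, adjusted p = 0.00861), both transcription factor genes. At day 14 Tgm2 and Chil3 were the 2 of 19 called higher, with 0 lower. Of all genes, 5.57% were called higher and 2.71% lower at day 14. Egr2 was also called lower in cilengitide wounds than in WT vehicle wounds (log2 fold change -1.27, adjusted p = 0.0193), and Klf4, which keratinocytes also express, higher than in Col5a1CKO vehicle wounds (log2 fold change 2.10, adjusted p = 0.0302). Of 12 genes of resident dermal macrophages, 0 of 10 tested were called at day 14, and 4 of 12, F13a1, Lyve1, Timd4 and Mrc1, were called higher in vehicle wounds, where 17.5% of all genes were. Of the 12, 6 had a positive log2 fold change there, and the others, among them Cbr2, Gas6 and Stab1, had values from -1.22 to -0.01 and were not called. At day 19, and between Col5a1CKO wounds with and without fibroblasts, 0 genes of any list were called by edgeR.

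**Figure D4:**
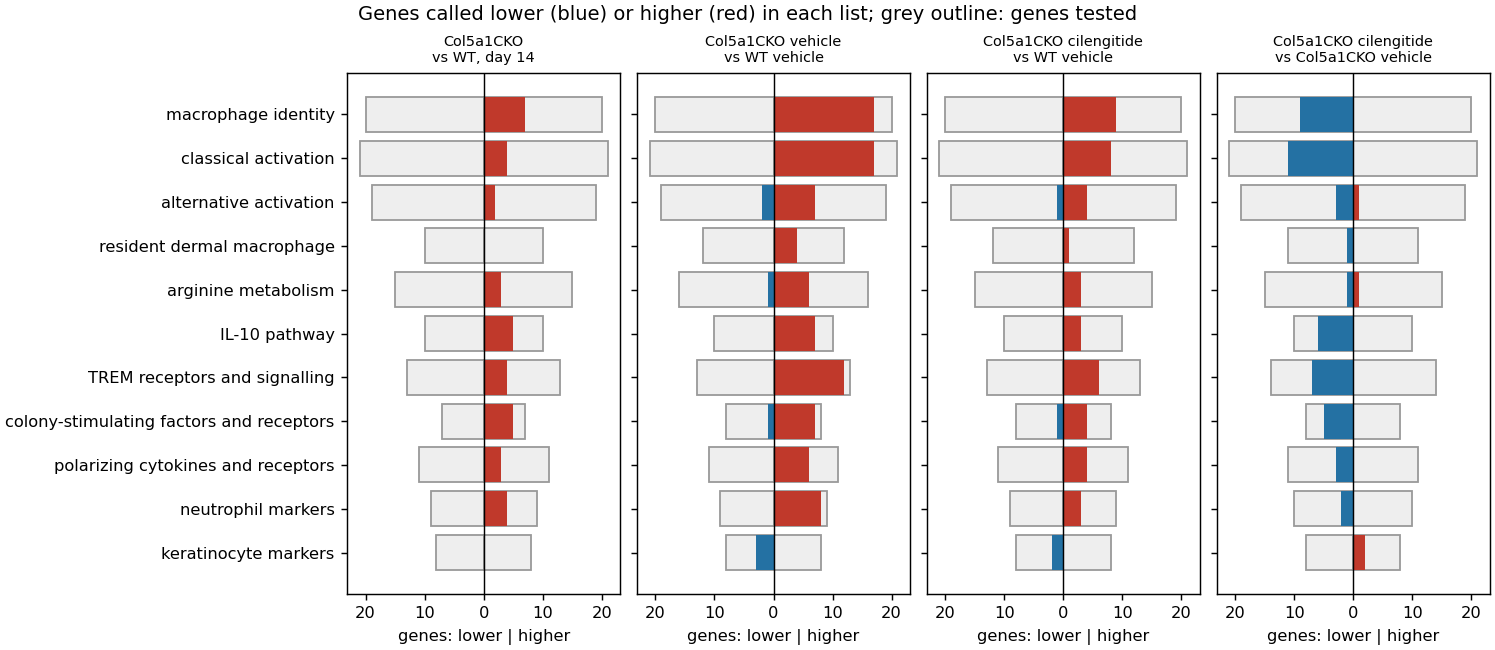
Number of genes called lower (blue, to the left) or higher (red, to the right) in each gene list for 4 comparisons, with the number tested on both sides in grey. In vehicle wounds 17 of 21 classical and 7 of 19 alternative genes are called higher in Col5a1CKO, and with cilengitide 11 and 3 of them are called lower than with vehicle.

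Nos2 and Arg1 compete for arginine, and the transporter gene Slc7a2, which supplies arginine to activated macrophages, rose with Nos2. Slc7a2 rose at day 14 from a mean of 12.5 to 62.6 CPM (log2 fold change 2.30, edgeR adjusted p = 0.0283) and in vehicle wounds from 5.18 to 84.7 CPM (log2 fold change 4.01, adjusted p = 0.0018), and it was lower with cilengitide (log2 fold change -2.58, adjusted p = 0.0180). The other cationic transporter gene, Slc7a1, fell from 72.7 to 31.1 CPM in vehicle wounds (log2 fold change -1.24, adjusted p = 0.0027) and was higher with cilengitide than with vehicle (log2 fold change 1.12, adjusted p = 0.0121). Ass1, whose enzyme takes part in remaking arginine from citrulline, rose in vehicle wounds (log2 fold change 1.53, adjusted p = 0.00685), and Odc1, whose enzyme turns ornithine into putrescine, rose at day 14 (log2 fold change 1.45, adjusted p = 0.0117). Of the 17 genes of arginine metabolism, 3 of 15 tested were called higher at day 14 and 6 of 16 in vehicle wounds, where Slc7a1 was the 1 called lower. Of all genes 5.57% were called higher at day 14, and 17.5% higher and 13.4% lower in vehicle wounds, so the 1 of 16 called lower is a smaller share than among all genes.

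Receptors and signalling genes around Il10 and Trem1 were called in the same comparisons. Of the 10 genes of the interleukin 10 pathway, 5 were called higher at day 14, 7 in vehicle wounds, and 6 were called lower with cilengitide, where 5.57%, 17.5% and 6.59% of all genes were. The receptor chain gene Il10ra rose at day 14 from a mean of 15.9 to 56.4 CPM (log2 fold change 1.84, edgeR adjusted p = 0.00662) and in vehicle wounds (log2 fold change 3.17, adjusted p = 0.00233), and Socs3, a feedback inhibitor of cytokine signals, in both as well (log2 fold change 3.01 and 4.31). Of 14 genes of TREM receptors and their signals, 4 of 13 tested were called higher at day 14 and 12 of 13 in vehicle wounds, and 7 of 14 were called lower with cilengitide, beside the same shares of all genes. Syk, the kinase below these receptors, rose at day 14 (log2 fold change 2.18, adjusted p = 0.0051), and the adaptor gene Tyrobp rose in vehicle wounds from 43.3 to 668.3 CPM (log2 fold change 3.93, adjusted p = 0.0023) and fell with cilengitide (log2 fold change -2.44, adjusted p = 0.0216). Pglyrp1, whose protein is a ligand of TREM-1, rose at day 14 (log2 fold change 5.18, adjusted p = 0.0202) and in vehicle wounds (log2 fold change 5.0, adjusted p = 0.0015).

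Genes of growth factors for these cells and of polarizing cytokines were counted in the same way. Of 8 colony-stimulating factor and receptor genes, 5 of 7 tested were called higher at day 14, where 5.57% of all genes were. In vehicle wounds, where 17.5% of all genes were called higher and 13.4% lower, 7 of 8 were called higher, and Il34, which encodes a keratinocyte-made ligand of the Csf1r receptor, was the 1 called lower (log2 fold change -1.84, edgeR adjusted p = 0.0027). Among 14 polarizing cytokine and receptor genes, 3 of 11 tested were called higher at day 14 and 6 of 11 in vehicle wounds. The cytokine genes themselves were near the limit of detection. Mean levels in WT and Col5a1CKO wounds of day 14 were 0.126 and 0.408 CPM for Ifng, 0 and 0.0917 CPM for Il4 and 0.0465 and 0.104 CPM for Il13, and all 3 failed the filter on low counts in that comparison and in the vehicle comparison. Il13ra2, which encodes a decoy receptor for interleukin 13, rose at day 14 from 0.720 to 20.7 CPM (log2 fold change 4.81, adjusted p = 0.00837), and Tlr2 in both comparisons (log2 fold change 2.36 and 4.62).

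Markers of other cell types moved in the same comparisons, in which 5.57% of all genes were called higher at day 14, 17.5% higher and 13.4% lower in vehicle wounds, and 6.59% lower with cilengitide. Of the 20 macrophage identity genes, 7 were called higher at day 14, 17 in vehicle wounds and 9 lower with cilengitide. Of 11 neutrophil markers, Ly6g was not matched, 4 of 9 tested were called higher at day 14 and 8 of 9 in vehicle wounds, and 2 of 10 were called lower with cilengitide. The summed level of the 10 neutrophil markers ranged from 1148 to 8923 CPM over WT wounds and from 1756 to 20993 CPM over Col5a1CKO wounds of day 14, and 96.1 to 2217, 1630 to 43951 and 3178 to 7230 CPM in WT vehicle, Col5a1CKO vehicle and cilengitide wounds. Elane, a marker of young neutrophils, was at 0 in all WT wounds of day 14 and all WT vehicle wounds. In each other group, WT wounds of day 19 among them, it had counts in at least 1 wound. Of 8 keratinocyte markers, 0 were called at day 14, with a median log2 fold change of -1.58, and 3 were called lower in vehicle wounds. In the lower library set at day 14 their sum was 38199 to 41776 CPM for WT and 39.3 to 37637 CPM for Col5a1CKO wounds. In the upper set it was 127498 to 161543 CPM and 159.8 to 75565 CPM. In WT vehicle, Col5a1CKO vehicle and cilengitide wounds it was 69729 to 106395, 80.5 to 18355 and 43291 to 80781 CPM. In Col5a1CKO vehicle replicate 2 it was the lowest of the experiment. Cd86 is also made by dendritic cells and Langerhans cells. Of 6 dendritic cell markers 2 were called higher in vehicle wounds, and both Langerhans cell markers, Cd207 and Epcam, were called lower, with a sum of 191.9 to 280.3 CPM over WT and of 1.22 to 12.5 CPM over Col5a1CKO vehicle wounds. All 3 endothelium markers, Pecam1, Cdh5 and Kdr, were called higher at day 14, with a median log2 fold change of 1.62, and 1 of 3 in vehicle wounds. Their sum ranged from 48.4 to 184.1 CPM over WT and from 173.6 to 419.8 CPM over Col5a1CKO wounds of day 14. Of 6 fibroblast markers all had positive log2 fold changes in both comparisons, with 1 called higher at day 14 and 2 in vehicle wounds. The part of all these cell types in the levels of Trem1, Nos2, Arg1 and Cd86 was not tested.

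**Figure D5:**
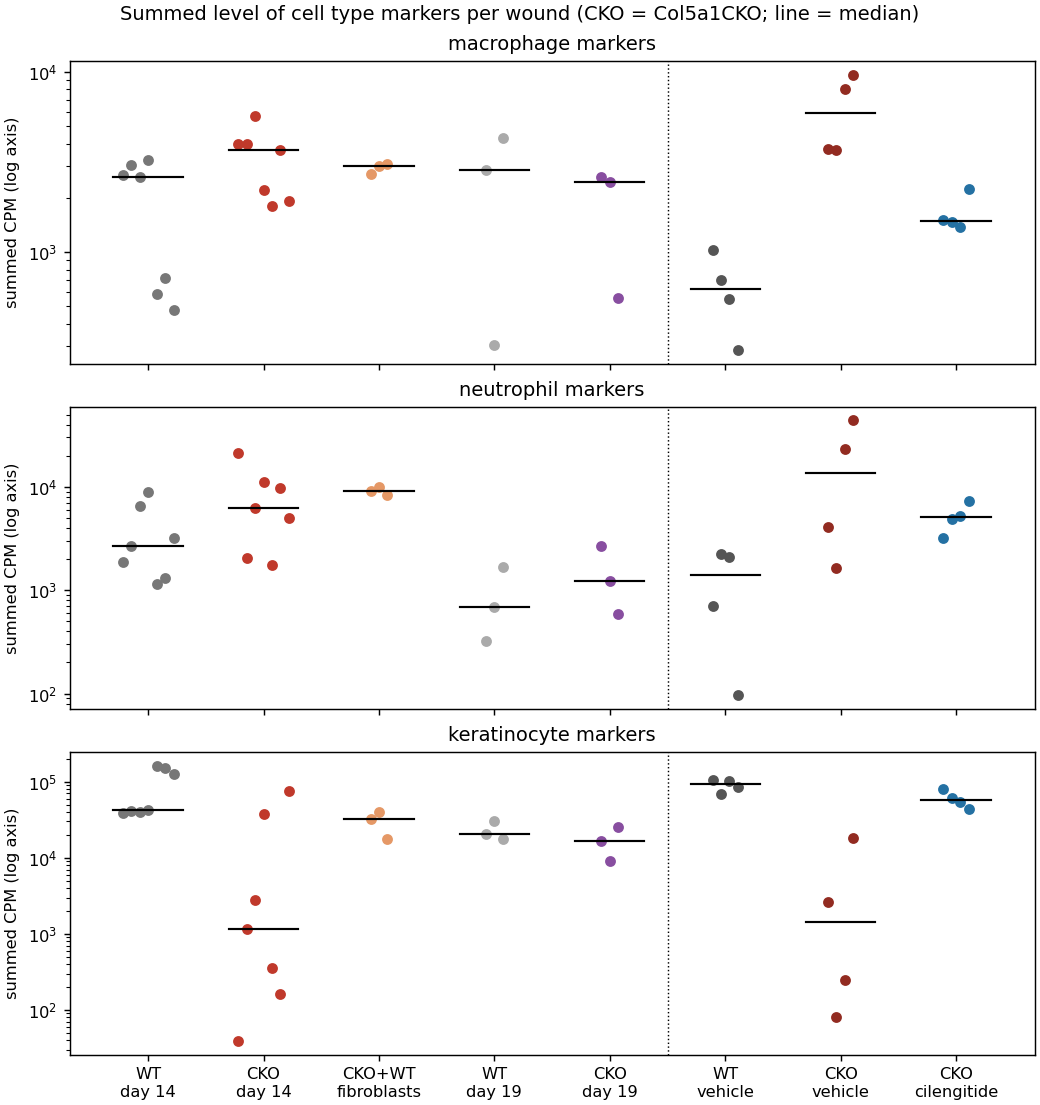
Summed CPM (log axis) of 9 macrophage, 10 neutrophil and 8 keratinocyte markers in each wound of the 8 groups, with the group median as a line. Macrophage and neutrophil sums reach their highest values in Col5a1CKO vehicle wounds, up to 9623 and 43951 CPM, where the keratinocyte sums are 80.5 to 18355 CPM, below all WT vehicle and cilengitide wounds.

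Across wounds, Nos2 and Arg1 varied with different genes. Likeness was measured by Pearson's r of log2(CPM + 1), taking the lower of the values over the 23 libraries of the first table and the 12 of the cilengitide table, among 13788 genes that averaged 1 CPM or more in both. These values describe the same libraries as the comparisons above and share their depth and cell makeup. The 5 genes most like Nos2 were Pfkfb3 (r = 0.926), which encodes an activator of glycolysis, C920009B18Rik (r = 0.899), Tnfaip3 (r = 0.897), which encodes the NF-kB inhibitor A20, Fcrlb (r = 0.895) and the TNF receptor gene Tnfrsf1b (r = 0.891). The 5 most like Arg1 were Bnip3 (r = 0.828), a gene of mitophagy known for its induction by low oxygen, Ero1l (r = 0.802), which encodes an oxidase of the endoplasmic reticulum, Serpinb2 (r = 0.791), Skil (r = 0.770) and the glycolysis gene Pgam1 (r = 0.763). Arg1 and Nos2 themselves had an r of 0.245 over the first table and 0.811 over the cilengitide table. Csf1r ranked 461 in likeness to Nos2 and 4259 in likeness to Arg1, and Retnla ranked 11336 and 13572.

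The RefSeq promoter sequences at hand cover 5 of the 10 genes, Mrc1, Cd163, Retnla, Cd68 and Trem1. They are shown for a gene that rose with Nos2 in vehicle wounds (Trem1), a general macrophage gene (Cd68) and both genes of the alternative state that were called in none of the 7 comparisons as first fitted (Cd163 and Retnla). Each is the 250 bases before the start, 5′ to 3′ on the gene's strand, of build GRCm38.p6. The searched motifs, on both strands, were those of NF-kB (GGGNNTTCC), STAT6 (TTC and GAA with any 4 bases between them), AP-1 (TGANTCA), PU.1 (GAGGAA), C/EBP (TTGCNNCAA) and the TATA box (TATAAA), and the capitals mark their matches.
Trem1, chr17:48232489-48232738, plus strand: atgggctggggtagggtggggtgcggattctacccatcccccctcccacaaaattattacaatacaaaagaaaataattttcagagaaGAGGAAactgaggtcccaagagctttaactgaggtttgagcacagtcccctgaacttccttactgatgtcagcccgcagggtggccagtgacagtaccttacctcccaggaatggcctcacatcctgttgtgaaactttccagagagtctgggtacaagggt
Cd68, chr11:69666171-69666420, minus strand: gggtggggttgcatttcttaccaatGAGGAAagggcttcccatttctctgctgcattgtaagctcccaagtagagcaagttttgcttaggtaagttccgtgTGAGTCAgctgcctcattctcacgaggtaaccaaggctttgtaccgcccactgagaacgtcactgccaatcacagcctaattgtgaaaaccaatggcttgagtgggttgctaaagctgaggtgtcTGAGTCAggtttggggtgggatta
Cd163, chr6:124304401-124304650, plus strand: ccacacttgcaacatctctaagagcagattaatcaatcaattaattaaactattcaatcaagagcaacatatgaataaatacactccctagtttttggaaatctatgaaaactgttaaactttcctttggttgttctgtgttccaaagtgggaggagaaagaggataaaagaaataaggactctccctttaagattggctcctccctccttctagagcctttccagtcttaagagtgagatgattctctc
Retnla, chr16:48842359-48842608, plus strand: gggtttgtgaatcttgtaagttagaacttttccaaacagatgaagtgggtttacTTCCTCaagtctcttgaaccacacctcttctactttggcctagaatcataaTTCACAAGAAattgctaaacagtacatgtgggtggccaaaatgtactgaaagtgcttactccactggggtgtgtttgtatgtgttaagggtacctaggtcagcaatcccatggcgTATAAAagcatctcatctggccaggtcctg

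The Trem1 promoter held a PU.1 match at 162 to 157 bases before the start. Cd68 held AP-1 matches at 149 to 143 and at 24 to 18 bases and a PU.1 match at 225 to 220 bases. Retnla held a STAT6 match at 145 to 136 bases, a PU.1 match at 196 to 191 and a TATA box at 30 to 25 bases. No motif matched in the Cd163 window. Mrc1, not printed, held 3 PU.1 matches and an NF-kB match at 74 to 66 bases. Among 32851 mouse promoters, windows of the same length held a PU.1 match in 23.3%, a TATA box in 12.4%, an AP-1 match in 6.75%, a STAT6 match in 5.85%, an NF-kB match in 4.98% and a C/EBP match in 1.74%. Matches to such short motifs are descriptions of the sequence and not binding sites.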

How the data were processed

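The authors aligned single-end reads of a strand-specific kit with Hisat2 to NCBI37/mm9 and counted reads on RefSeq exons with SeqMonk. Whether this also covers the cilengitide libraries is not given in the sources used here. The deposited values are raw read counts, per transcript in the first table, where the transcript with the largest total was kept for each symbol, and per symbol in the other. Rows without a gene name held 0.0492% and 5.91e-05% of the counts and were left out.

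Groups followed the sample titles. Each comparison was fitted on all genes of its table, with only the 2 groups compared, by edgeR 4.0.16 in R 4.3.3 (quasi-likelihood test, TMM, minimum count 10, robust). Adjusted p-values are Benjamini-Hochberg over all genes tested, and a gene was called at an adjusted p under 0.05 and at least 2-fold. No test crossed the tables, which were normalized separately. CPM were scaled by TMM over all libraries of a table, and the RPKM of the cilengitide table use the transcript lengths of the first. RPKM were divided by the counts of all rows, which in the first table include every transcript of a symbol. Ratios were tested by exact permutation (scipy 1.17.1). The edgeR test was run on simulated data for Col5a1CKO against WT at day 14, at day 19 and in vehicle wounds. Those data held no library sets, and the outcome is not given here. DESeq2 1.42.0, other scaling, no filter, a 3-fold threshold, a single fit, a replicate block, library sets and leaving out each wound were alternatives, the library sets and the ratios without single wounds chosen after seeing the data. The replicate letters did not pair wounds, with correlations from -0.46 to 0.57 at day 14. The labels do not say that each library came from another mouse, so p-values measure the spread between these samples. Counting error limits Il10 and Cd163.

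The genes and lists were chosen with earlier results of these data known. Named were the 10 genes, up to 4 called genes of each list per comparison with the smallest adjusted p, and the 5 genes most like Nos2 and Arg1. Il34, Elane, Ifng, Il4, Il13, Cbr2, Gas6, Stab1, the endothelium markers and, in vehicle wounds, Klf4 and Egr2 were named after their values were seen.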

Additional observations from a re-analysis of the deposited data

Results flagged for a closer look

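Over 50 combinations of a gene and a group of 4 or 7 wounds, 5 held a wound far from the others by Dixon's criterion. Its rate of about 1 in 20 by chance assumes normally distributed values, which CPM need not be. All 5 were the highest wound of their group. Nos2 was at 117.1 CPM in cilengitide replicate 4, against 4.60 to 17.9 CPM in the other 3. Mrc1 was at 691.7 CPM in Col5a1CKO replicate b of day 14, against 161.1 to 361.3 CPM in the other 6. Cd163 was at 13.4 CPM in WT replicate a of day 14, against 0 to 2.15 CPM in the other 6. Retnla was at 5.03 CPM in Col5a1CKO vehicle replicate 2, against 0.0853 to 0.329 CPM in the other 3. Il10 was at 1.25 CPM in WT replicate d of day 14, against 0 to 0.366 CPM in the other 6.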

How the results depend on the processing

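Nos2 and Csf1r at day 14, and Nos2, Il10, Cd86, Cd68, Csf1r and Trem1 in vehicle wounds, were called under every alternative run. None of the 26 called fold changes turned in direction. Of the 10 genes, day 14 gave 7 called with DESeq2, 2 within the lower library set and 2 to 5 when leaving out 1 wound, and Cd68 was lost without Col5a1CKO replicate c or f. Fibroblast-injected against WT wounds gave 6 with the library set as a covariate, 8 within the upper set and 2 to 4 without 1 wound. Vehicle wounds gave 6 to 9 without 1 wound. Cilengitide against Col5a1CKO vehicle gave 2 at a 3-fold threshold and 3 to 6 without 1 wound, Il10 being lost without cilengitide replicate 3. Cilengitide against WT vehicle gave 2 without the filter, 1 in a single fit, 4 at a 3-fold threshold and 0 to 5 without 1 wound. The causes were not tested, and the share of all genes called was counted only for the comparisons as first fitted.

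With the replicate block, 6 genes were called at day 14, 3 in injected against WT wounds, 0 at day 19 and 0 in injected against fibroblast-free Col5a1CKO wounds. There the log2 fold change turned to -0.17 for Arg1 at day 14, 0.42 for Csf1r at day 19, -2.48 for Nos2 in injected against fibroblast-free Col5a1CKO wounds, and -0.48 for Arg1 and -0.49 for Mrc1 in injected against WT wounds. Of 7, 3, 3 and 3 same-letter pairs at day 14, at day 19, of injected with fibroblast-free Col5a1CKO and of injected with WT wounds, 1, 0, 0 and 1 correlated best with their own letter.

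Fold changes that were not called turned elsewhere too. In injected against fibroblast-free Col5a1CKO wounds, the library set covariate gave 0.25 for Arg1, 0.069 for Cd86 and -0.034 for Csf1r, and the upper set 0.31 for Arg1, 0.0025 for Mrc1 and 0.13 for Cd86. Leaving out 1 wound gave ranges of -1.64 to 0.46 for Arg1, -0.25 to 0.96 for Il10 and -2.78 to 1.23 for Nos2 there, and -1.09 to 0.88 for Arg1 against WT. At day 14 these were -0.33 to 0.84 for Retnla and -0.12 to 0.65 for Arg1. At day 19 they were -0.33 to 0.91 for Cd163, -0.25 to 0.65 for Cd86, -0.59 to 0.73 for Csf1r and -0.086 to 0.92 for Mrc1, and for Retnla with cilengitide against vehicle -0.75 to 2.80.

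Within the upper set the log2 ratios at day 14 no longer passed, at 5.67 for Nos2 to Arg1 and 3.71 for Nos2 to Csf1r, with too few wounds to pass, and Arg1 to Csf1r in injected against fibroblast-free Col5a1CKO wounds turned to 0.53. Leaving out 1 wound moved the ratios in that comparison from -1.26 to 0.53 for Nos2 to Arg1, -2.67 to 0.041 for Nos2 to Csf1r and -1.42 to 0.30 for Arg1 to Csf1r. It moved Nos2 to Arg1 at day 19 from -1.38 to 0.27, and Arg1 to Csf1r from -0.91 to 1.08 in vehicle wounds and from -0.40 to 1.60 with cilengitide against vehicle.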
